A study of Homo sapiens with 38 samples.

Results

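The 30 genes described here make, take up, store and export cholesterol. They were listed by symbol and followed through 15 deposited tables, each of 1 compound against DMSO, with particular attention to MS177 against C24 in the BT-549 line. They were 30 of 24463 genes listed in at least 1 table. All 30 were in the tables of T47D and in the 48 h tables of T47D-TR. The BT-549 tables held 29, without ABCG1, and the table of MS8815-N held 29, without ABCA1.

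Polyadenylated RNA was sequenced from T47D, T47D-TR and BT-549 cells, 3 established lines of human breast cancer. At 48 h each line had received 2.5 uM of MS177 (a PROTAC degrader whose target is EZH2, the histone methyltransferase of Polycomb), of its negative controls MS177-N1 or MS177-N2, or of the EZH2 inhibitor C24, or else 0.125% DMSO. At 30 h T47D-TR had received 2.5 uM of MS8815 (another EZH2 degrader), of its negative control MS8815-N or of the inhibitor EPZ-6438, or else 0.05% DMSO. Cells of all groups grew in RPMI with fetal bovine serum and insulin. The labels give 2 samples per group and do not say whether these were separate cultures, so p-values measure only the spread between these samples, which may be technical. Each line is 1 cell line, and the labels do not say how T47D-TR was derived.

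Cells make cholesterol from acetyl-CoA through mevalonate, isoprenoid diphosphates, squalene and lanosterol. The membrane-bound factor SREBP-2, the product of SREBF2, is escorted by SCAP to the Golgi when sterols are low, is cut there, and then switches on most genes of the pathway together with the CCAAT-binding factor NF-Y. Sterol-derived ligands act in the other direction through the nuclear receptor LXR, which switches on the exporters ABCA1 and ABCG1 and the ubiquitin ligase MYLIP.

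Promoter windows are shown for 4 genes that were higher with C24 in BT-549 and for SREBF2, since these genes moved together. Each line is the 250 bases before a RefSeq start on GRCh38.p14, read 5′ to 3′ on the gene's strand. Capitals mark CCAAT or its reverse complement ATTGG and, in SREBF2, the sterol regulatory element TCACNCCAC. For HMGCS1 and DHCR7, which have a pair of listed starts each, the window that holds CCAAT is shown.
HMGCS1 (chr5:43313413-43313662, minus strand): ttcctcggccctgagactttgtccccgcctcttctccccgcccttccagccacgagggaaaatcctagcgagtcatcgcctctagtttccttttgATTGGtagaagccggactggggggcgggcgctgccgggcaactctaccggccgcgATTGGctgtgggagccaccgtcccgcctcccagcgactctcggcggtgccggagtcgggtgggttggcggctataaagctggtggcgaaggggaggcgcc
MVK (chr12:109573544-109573793, plus strand): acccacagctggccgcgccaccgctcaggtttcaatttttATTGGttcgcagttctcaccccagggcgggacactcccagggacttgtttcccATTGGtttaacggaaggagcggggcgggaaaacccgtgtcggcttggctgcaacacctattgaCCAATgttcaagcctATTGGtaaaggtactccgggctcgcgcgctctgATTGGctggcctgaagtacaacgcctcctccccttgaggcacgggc
MSMO1 (chr4:165327419-165327668, plus strand): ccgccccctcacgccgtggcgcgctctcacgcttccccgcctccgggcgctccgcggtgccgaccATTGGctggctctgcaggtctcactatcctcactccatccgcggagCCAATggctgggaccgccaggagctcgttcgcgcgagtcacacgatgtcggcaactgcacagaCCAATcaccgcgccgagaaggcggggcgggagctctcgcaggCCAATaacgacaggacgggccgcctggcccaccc
DHCR7 (chr11:71448394-71448643, minus strand): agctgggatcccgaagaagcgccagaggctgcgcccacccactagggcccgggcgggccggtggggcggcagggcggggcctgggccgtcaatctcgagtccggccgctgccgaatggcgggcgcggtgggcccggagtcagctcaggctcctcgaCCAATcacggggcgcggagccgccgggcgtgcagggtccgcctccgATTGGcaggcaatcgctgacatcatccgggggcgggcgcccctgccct
SREBF2 (chr22:41832855-41833104, plus strand): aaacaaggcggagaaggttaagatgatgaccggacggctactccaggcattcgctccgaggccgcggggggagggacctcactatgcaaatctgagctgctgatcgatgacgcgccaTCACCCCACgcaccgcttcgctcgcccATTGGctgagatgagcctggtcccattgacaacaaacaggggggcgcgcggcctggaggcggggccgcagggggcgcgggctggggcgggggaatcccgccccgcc
RefSeq windows were found for 26 of the 30 genes, with 34 starts. CCAAT was present on either strand in 21 of these 34 windows (61.8%), against 32.0% of all 35116 windows of that length. The GC box GGGCGG was in 30 of 34, against 42.6% of all windows. TCACNCCAC was in 1 of 34, that of SREBF2, with its first base 133 bases before the start, against 0.883% of all windows. The 3 motifs were searched on both strands, and none contains another. A match is a description of letters and not of binding.

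Depth could be recovered for T47D and BT-549, where the total per library was 32.1 to 49.9 M reads, and is unknown for T47D-TR. Values below are normalized counts, obtained by undoing the authors' log2 transform within each table and joining the tables of a line and time through their shared DMSO libraries. The undone values were whole reads in T47D and BT-549 but mostly not in T47D-TR, where this step could not be checked. Differences are log2 differences of (normalized count + 1) with their standard error (SE), tested with limma and adjusted over all genes by the Benjamini-Hochberg method at 0.05, two-sided. Marker genes differed between the lines: in DMSO at 48 h KRT8 averaged 198624 in T47D, 119787 in T47D-TR and 379.6 in BT-549, while VIM averaged 98.1, 6.60 and 78972, on scales normalized separately for each line. The EZH2 transcript itself was 0.54 higher (log2) with MS177 than with DMSO in T47D-TR (adjusted p = 0.0213, limma) and did not pass in T47D or BT-549. Some libraries stood apart. The 2 MS177 libraries of T47D differed from each other, the second treated column of the T47D table of MS177-N1 repeated a library of MS177-N2 (equal at 100% of 17724 shared genes, so that MS177-N1 has 1 library there), and MS8815-N replicate 2 of T47D-TR was at 0 for 44.3% of its genes.

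In BT-549 the cholesterol genes stood lower with MS177 than with C24. Of 29 measured genes 23 were lower with MS177 than with C24 and 0 were higher, against 18.9% and 16.8% of all 16345 genes tested, and the median log2 difference was -0.95 against 0.00 over all genes. Both MS177 libraries lay below both C24 libraries in 24 genes and above them in 1. Such separation was counted for the listed genes only, here and below, so its share over all genes is not known. RNA of whole cultures was measured, so fewer cells of one state and less RNA per cell cannot be told apart. Leaving out any 1 library of the 2 groups kept 20 to 22 lower. Other values moved with this comparison, and their part in it was not tested. The mitochondrially encoded share was 1.22 and 0.959% with MS177 against 2.02 and 1.39% with C24, and 7 of 13 of these genes passed as lower. Of 10 luminal breast markers 6 were listed in every BT-549 table, none of them at 0. CDH1 and GATA3 passed as lower with MS177 than with C24 and KRT8 and KRT18 as higher. The summed level of the 6 was 27137 to 32184 normalized counts with MS177 against 22505 to 22963 with C24. Most of this sum was KRT18, with 23492 and 28136 with MS177 against 15987 and 16642 with C24. CDH1, E-cadherin, had 136 and 133 with MS177 against 777 and 631 with C24. Of 10 mesenchymal or basal markers, again none at 0, TWIST1 and SPARC passed as lower and AXL as higher, with sums of 152796 to 163757 with MS177 against 173470.4 to 186511 with C24.

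The early mevalonate enzymes were lower with MS177 in 6 of 7 cases. HMGCS1, which makes hydroxymethylglutaryl-CoA, had 1273 and 1225 normalized counts with MS177, 4831 and 5427 with C24 and 1764 and 1810.0 in DMSO. The 3 groups did not overlap: C24 was highest and MS177 lowest, 4.11-fold below C24 (log2 difference -2.03 ± 0.12 SE, adjusted p = 5.75e-06, limma). MVK, mevalonate kinase, had 441 and 487 with MS177, 1901 and 1915 with C24 and 905 and 809.9 in DMSO, the same order, with MS177 4.11-fold below C24. Exons of MVK overlap those of MMAB in the annotation, and the strand of the counting is not stated, so its reads may be shared. ACAT2, the cytosolic thiolase that opens the pathway, had 3126 and 3722 with MS177, 6849 and 8066 with C24 and 7208 and 6263 in DMSO. Here C24 overlapped DMSO and MS177 lay below both; ACAT2 exons overlap SOD2 and TCP1. IDI1, the isopentenyl diphosphate isomerase, had 1323 and 1382 with MS177, 2780.2 and 3429 with C24 and 2278 and 1898 in DMSO. FDPS, which makes farnesyl diphosphate and has 8 annotated pseudogenes, had 5573 and 7010.2 with MS177, 10858 and 11827 with C24 and 8705 and 7301 in DMSO. In both genes the 3 groups were again separate, in the same order. MVD, the mevalonate diphosphate decarboxylase, had 1359.9 and 1981 with MS177, 3077 and 3328 with C24 and 2433 and 1903 in DMSO, so that MS177 overlapped DMSO while C24 lay above both. PMVK, the kinase between MVK and MVD, was the exception: 2459 and 4361 with MS177, 2302 and 3418 with C24 and 3310.4 and 2495 in DMSO overlapped throughout, and its log2 difference between MS177 and C24 had a 95% interval of -0.46 to 0.90.

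All 12 enzymes from squalene onward were lower with MS177 than with C24. FDFT1, squalene synthase, had 5723 and 6393 with MS177, 19033 and 20581 with C24 and 11310.2 and 9980.5 in DMSO, 3.27-fold lower with MS177 than with C24 (log2 difference -1.71 ± 0.13 SE, adjusted p = 2.61e-05, limma). SQLE, squalene epoxidase, had 3897 and 3825 with MS177, 9010.1 and 9769 with C24 and 5469.8 and 5515 in DMSO. DHCR7, the reductase of the last step to cholesterol, had the lowest log2 difference of the set: 2066 and 1764 with MS177, 10028 and 7289 with C24 and 3242 and 3594 in DMSO, a 4.52-fold lower mean (log2 difference -2.16 ± 0.16 SE, adjusted p = 2.24e-05, limma). In these 3 genes MS177 lay below DMSO and C24 above it without overlap. MSMO1, the methylsterol monooxygenase, had 1197 and 1229.5 with MS177, 2594 and 3204 with C24 and 1460.4 and 1348 in DMSO. NSDHL, a sterol dehydrogenase, had 1818 and 1963 with MS177, 3054 and 3105 with C24 and 2235 and 2204 in DMSO. HSD17B7, which reduces the sterol ketone and has 2 pseudogenes, had 180.4 and 228 with MS177, 407 and 489.6 with C24 and 298 and 251 in DMSO. These 3 also kept the order MS177, DMSO, C24 from low to high.

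The remaining sterol enzymes differed mainly in where DMSO lay. LSS, lanosterol synthase, had 2895 and 2506 with MS177, 5873 and 5089 with C24 and 2965 and 3469 in DMSO, with 1 MS177 library close under the lower DMSO library. CYP51A1, lanosterol demethylase, had 2749.8 and 2633 with MS177, 3650.4 and 4542 with C24 and 2212 and 2393 in DMSO, so that both treatments lay above DMSO; it has 3 pseudogenes and overlapping exons. SC5D, a sterol desaturase, had 1018 and 842 with MS177, 1457 and 1454 with C24 and 835 and 1032 in DMSO. TM7SF2 and LBR are sterol reductases of the same step, and LBR also binds lamin B at the inner nuclear membrane. TM7SF2, whose exons overlap VPS51, had 316 and 385 with MS177, 577 and 670.3 with C24 and 388 and 284 in DMSO. LBR had 2424 and 2125 with MS177, 3313 and 3612 with C24 and 3372 and 3693 in DMSO. In TM7SF2 and SC5D MS177 overlapped DMSO and C24 lay above both, and in LBR C24 overlapped DMSO and MS177 lay below both. EBP, a sterol isomerase, had 2433 and 3606 with MS177, 4796 and 6527 with C24 and 4825 and 3782 in DMSO, with the MS177 libraries below both others and C24 overlapping DMSO. The 6 smallest of these 12 differences, from -0.60 (CYP51A1) to -0.92 (EBP), all passed the threshold.

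**Figure D1:**
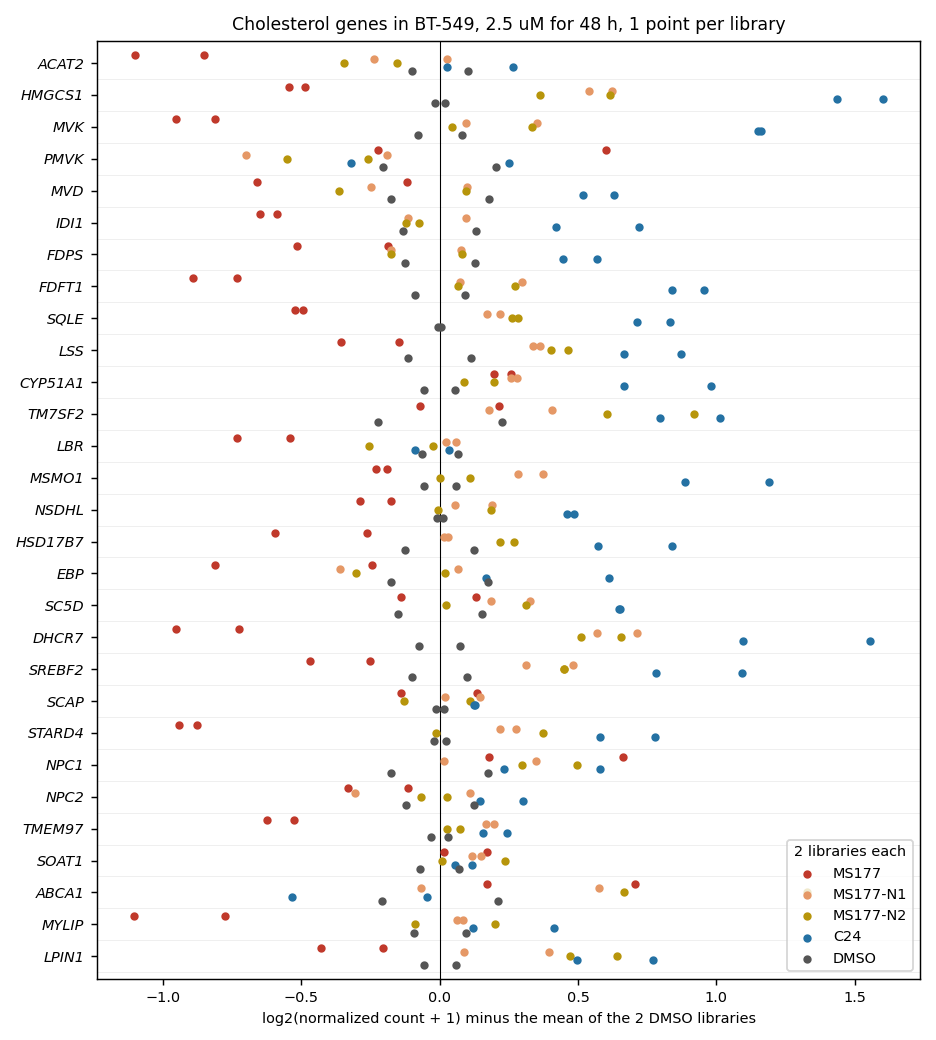
Levels of 29 cholesterol genes in BT-549 at 48 h, on a log2 scale relative to the mean of the 2 DMSO libraries; 1 point is 1 library. In most rows the red MS177 points lie left of the blue C24 points, without overlap in 24 rows, and the MS177-N1 and MS177-N2 points lie between them in many rows.

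Of the regulators, SREBF2 had 4729 and 4068 with MS177, 12013 and 9678 with C24 and 5258 and 6034 in DMSO. It was 2.47-fold lower with MS177 than with C24 (log2 difference -1.30 ± 0.14 SE, adjusted p = 1.78e-04, limma), with no overlap of the 3 groups. SCAP had 3569 and 4318 with MS177, 4298 and 4282 with C24 and 3971 and 3896 in DMSO, and the 95% interval of its log2 difference, -0.42 to 0.16, included 0. Among transport and storage genes, STARD4, which carries sterols between membranes, had 632 and 603 with MS177, 1735 and 1994 with C24 and 1145 and 1179 in DMSO. It was 3.02-fold lower with MS177 than with C24 (adjusted p = 6.25e-05, limma). TMEM97, an endoplasmic reticulum protein that binds NPC1, had 2154 and 2011 with MS177, 3674 and 3461 with C24 and 3040.1 and 3169.8 in DMSO; its exons overlap IFT20. NPC1 and NPC2, which move cholesterol out of lysosomes, and SOAT1, which esterifies it for storage, did not pass: the log2 intervals were -0.46 to 0.48, -0.80 to -0.09 and -0.26 to 0.27. In this group of 5 the 2 passing genes were thus STARD4 and TMEM97.

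Among genes that LXR switches on, ABCA1, the exporter of cholesterol to apolipoproteins, had 226 and 156 with MS177, 134 and 95.1 with C24 and 119 and 160.1 in DMSO. Its log2 difference between MS177 and C24 was 0.73 ± 0.32 SE and did not pass (adjusted p = 0.105, limma), though both MS177 libraries lay above both C24 libraries, the only such gene of the 29. MYLIP, the ubiquitin ligase that marks lipoprotein receptors for degradation, had 68.2 and 54.2 with MS177, 157 and 128 with C24 and 126 and 110.2 in DMSO. It fell to a 2.33-fold lower level with MS177 than with C24 (adjusted p = 0.00166, limma). LPIN1, a phosphatidate phosphatase of glycerolipid synthesis that SREBPs also activate, had 1396 and 1198 with MS177, 2752 and 2273 with C24 and 1548 and 1677 in DMSO. It passed as lower with MS177 than with C24 (adjusted p = 0.00142, limma).

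Against DMSO the same BT-549 cells had 11 of 29 genes lower and 0 higher with MS177, where 12.6% of all 16336 genes were lower and 11.5% higher. The 11 were ACAT2, HMGCS1, MVK, IDI1, FDFT1, SQLE, LBR, DHCR7, STARD4, TMEM97 and MYLIP, with log2 differences from -0.98 (ACAT2) to -0.51 (SQLE). ABCA1 and NPC1 had the highest values that did not pass, 0.44 and 0.42. Both MS177 libraries lay below both DMSO libraries in 19 genes and above them in 2, again without a share over all genes. Without DMSO replicate 1 the count lower was 6 and without DMSO replicate 2 it was 7. The share of mitochondrially encoded transcripts moved with this comparison: it was 0.959 and 1.22% with MS177 against 1.77 and 1.82% in DMSO, 7 of 13 of these genes passed as lower, and their part in the result was not tested.

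With C24 in BT-549 the pathway lay above DMSO. HMGCS1 (log2 difference 1.52 ± 0.13 SE), DHCR7 (1.32 ± 0.17), MVK (1.16 ± 0.14) and MSMO1 (1.04 ± 0.15) passed as higher (adjusted p = 0.00344, 0.0213, 0.0139 and 0.0363, limma). They were 4 of the 22 genes, 0.134% of 16358, that passed as higher in the whole comparison, while 0 of the set and 0.0306% of all genes passed as lower. Of the 29 genes 26 had values above 0, with a median of 0.57 against -0.01 over all genes. Both C24 libraries lay above both DMSO libraries in 23, again without a share over all genes. The next in size, SREBF2, TM7SF2 and FDFT1, had 0.94 ± 0.15, 0.90 ± 0.18 and 0.90 ± 0.14 SE and missed the threshold (adjusted p = 0.067, 0.141 and 0.061, limma). Leaving out any 1 library of the 2 groups raised the count above 4, in fits given without a share over all genes. The comparisons of MS177 and of C24 with DMSO share their DMSO libraries.

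The negative controls in BT-549 lay between C24 and MS177 for the genes that differed most. HMGCS1 had 2597 and 2753 with MS177-N1 and 2741 and 2296 with MS177-N2, each above DMSO and below C24. DHCR7 had 5064 and 5596 with MS177-N1 and 4866 and 5381 with MS177-N2, in the same place, and SREBF2 had 6994 and 7869 with MS177-N1 and 7684 and 7692 with MS177-N2. MS177 was lower than MS177-N1 in 16 of 29 genes (17.7% of all genes) and lower than MS177-N2 in 17 (19.4%), with 0 higher in either. Both MS177-N1 libraries lay above both DMSO libraries in 15 of the 29 genes and below them in 0. Both MS177-N2 libraries lay above both DMSO libraries in 11 and below them in 2. For neither control is the share of all genes with such separation known. Against DMSO, 0 of 29 passed with MS177-N1 (0 of 16154 genes, and 395 at an unadjusted p under 0.05, limma), and 1 passed without MS177-N1 replicate 1. With MS177-N2, DHCR7 (0.58 ± 0.14 SE) and ABCA1 (1.00 ± 0.24 SE) passed as higher (adjusted p = 0.0472 and 0.0455, limma), where 1.23% of all genes did and 0.888% passed as lower. The count was 1 without DMSO replicate 1, 1 without MS177-N2 replicate 1, and 0 in the fit over all libraries of the line.

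Of 36 other pathway genes that are not among the 30, 34 were in the BT-549 tables. With MS177 against C24, 12 passed as lower and 5 as higher (18.9% and 16.8% of all genes), with a median of -0.02. With MS177 against DMSO 10 were lower and 5 higher (12.6% and 11.5%), and with C24 against DMSO 4 were higher and 0 lower (0.134% and 0.0306%). Among those higher with C24 than with DMSO was INSIG1, the endoplasmic reticulum anchor of SCAP (log2 difference 1.15). INSIG1 stood at -1.78 with MS177 against C24. APOE, an acceptor apolipoprotein of exported cholesterol, had 527 and 817 normalized counts with MS177, 261 and 162 with MS177-N1, 777 and 902 with MS177-N2, 375 and 468 with C24 and 225 and 132 in DMSO. It passed as higher than DMSO with MS177 (1.92) and with the negative control MS177-N2 (2.27), and did not pass with C24 (1.28, adjusted p = 0.134, limma).

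**Figure D2:**
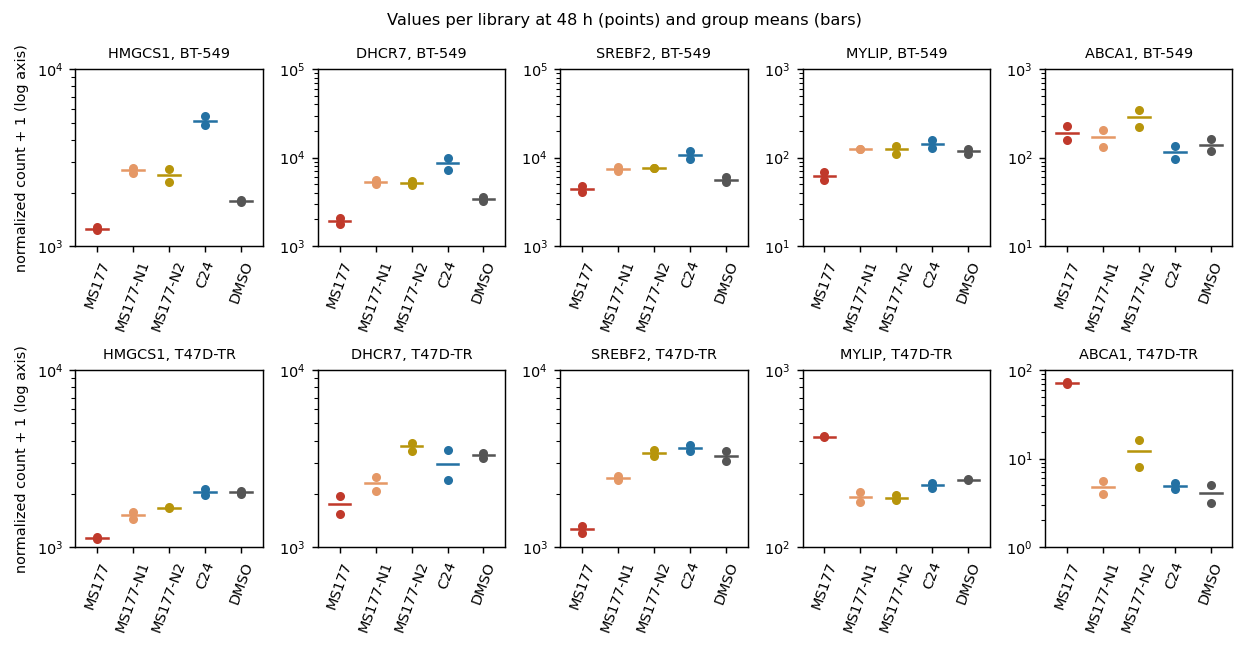
Normalized counts + 1 (log axes) of HMGCS1, DHCR7, SREBF2, MYLIP and ABCA1 at 48 h in BT-549 (top) and T47D-TR (bottom); points are libraries and bars are group means. In BT-549 the C24 libraries are the highest of HMGCS1 and DHCR7 and the MS177 libraries the lowest, whereas in T47D-TR the C24 libraries lie near DMSO and ABCA1 is far higher with MS177.

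In T47D-TR, MS177 moved nearly the whole set: against DMSO 22 of 30 genes were lower and 5 higher, where 26.9% and 27.6% of all 14555 genes were, and the median log2 difference was -0.84 against 0.00. The mevalonate genes fell in 6 of 7 cases, and the sterol enzymes in 11 of 12. ACAT2 had 194 and 173 normalized counts with MS177 and 1120.1 and 939 in DMSO, 5.62-fold lower. EBP had 304 and 345 with MS177 and 1242 and 927 in DMSO, and LSS had 798 and 698 with MS177 and 2364 and 2406 in DMSO. All 3 were apart by more than the spread of either pair (adjusted p = 8.14e-05, 4.55e-04 and 1.23e-04, limma). SREBF2 had 1313 and 1203 with MS177 and 3071 and 3489 in DMSO, 2.61-fold lower. TMEM97 had 299.7 and 271 with MS177 and 1891 and 2053 in DMSO, the lowest log2 difference of the set (-2.78 ± 0.13 SE, adjusted p = 3.17e-05, limma). HMGCS1, DHCR7 and FDFT1 fell less, by log2 differences of -0.86, -0.93 and -0.71.

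The 5 genes that rose in T47D-TR were the exporters, MYLIP, SC5D and NPC1. ABCA1 had 73.6 and 68.9 with MS177 and 3.99 and 2.18 in DMSO (log2 difference 4.18 ± 0.42 SE, adjusted p = 4.32e-04, limma), from a level near 0 in DMSO. A test required at least 10 counts in at least 2 libraries, which ABCA1 reached here only in the group where it is high. Its p-value therefore adds no separate support. ABCG1, which exports cholesterol to lipoproteins, had 415 and 379 with MS177 and 42.9 and 68.7 in DMSO, 7.11-fold higher. MYLIP had 423 and 416 with MS177 and 239 and 241 in DMSO. SC5D had 3246 and 3248 with MS177 and 1555 and 1485 in DMSO, the single sterol enzyme that rose, and NPC1 had 916 and 895 with MS177 and 609.8 and 690.0 in DMSO. PMVK, STARD4 and LPIN1 did not pass (-0.39, -0.51 and 0.50). Without any 1 library the counts past the threshold ranged from 23 to 29.

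In T47D-TR, C24 left no gene of the set past the threshold against DMSO (0 of 29 tested, 2 or 0.014% of 14249 genes, 273 at an unadjusted p under 0.05, limma), with a median of 0.01. MS177-N2 left 0 of 29 past it as well (16 or 0.111% of 14350 genes, 832 at an unadjusted p under 0.05, limma). MS177 was lower than C24 in 21 of 30 genes and higher in 6 (25.7% and 22.3% of all genes), a median of -0.85. Against MS177-N1 it was lower in 21 and higher in 6 (26.8% and 23.9%), and against MS177-N2 lower in 21 and higher in 5 (24.5% and 21.8%). The negative control MS177-N1 itself departed from DMSO in T47D-TR, with PMVK, MVD, FDPS, EBP and SCAP higher and DHCR7, NPC1 and SOAT1 lower (9.92% and 7.39% of all genes). PMVK had 2639.9 and 3787 with MS177-N1 and 1353 and 939 in DMSO, and SOAT1 had 629 and 602 with MS177-N1 and 1118 and 1342 in DMSO. The count of 8 became 0 without DMSO replicate 2, 2 without MS177-N1 replicate 2 and 0 in the fit over all libraries of the line. The mitochondrial share moved with it, 0.494 and 0.711% with MS177-N1 against 1.18 and 1.63% in DMSO, with 10 of 13 of these genes lower, and its part was not tested.

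PMVK, MVD, EBP and SCAP also varied between replicates of 1 group in T47D-TR. PMVK had 941 and 2499.6 in C24 replicates 1 and 2, MVD had 2125 and 3566 and EBP had 1012 and 1839.8. At 30 h PMVK had 1185 and 5858 in EPZ-6438 replicates 1 and 2. In both pairs replicate 2 was higher. The mitochondrial share was 1.53 and 0.579% in C24 replicates 1 and 2, and 0.539 and 0.275% in EPZ-6438 replicates 1 and 2; its part in the spread was not tested.

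Responses to MS177 differed between lines. In a limma interaction test over 8 libraries, the log2 response of T47D-TR minus that of BT-549 passed in 16 of 29 genes, 4 higher and 12 lower, where 14.2% and 16.3% of 12887 genes did. ABCA1 (3.74 ± 0.46 SE), MYLIP (1.74 ± 0.25), SC5D (1.10 ± 0.20) and LPIN1 (0.82 ± 0.24) had the higher response in T47D-TR. MYLIP was opposite in sign: it had 423 and 416 with MS177 against 239 and 241 in DMSO in T47D-TR, and 68.2 and 54.2 with MS177 against 126 and 110.2 in DMSO in BT-549. TMEM97 (-2.21 ± 0.15 SE), ACAT2 (-1.50 ± 0.21) and LSS (-1.42 ± 0.18) had the lowest values. HMGCS1, DHCR7 and FDFT1 did not pass, with 95% intervals of -0.65 to -0.03, -0.57 to 0.38 and -0.32 to 0.53.

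**Figure D3:**
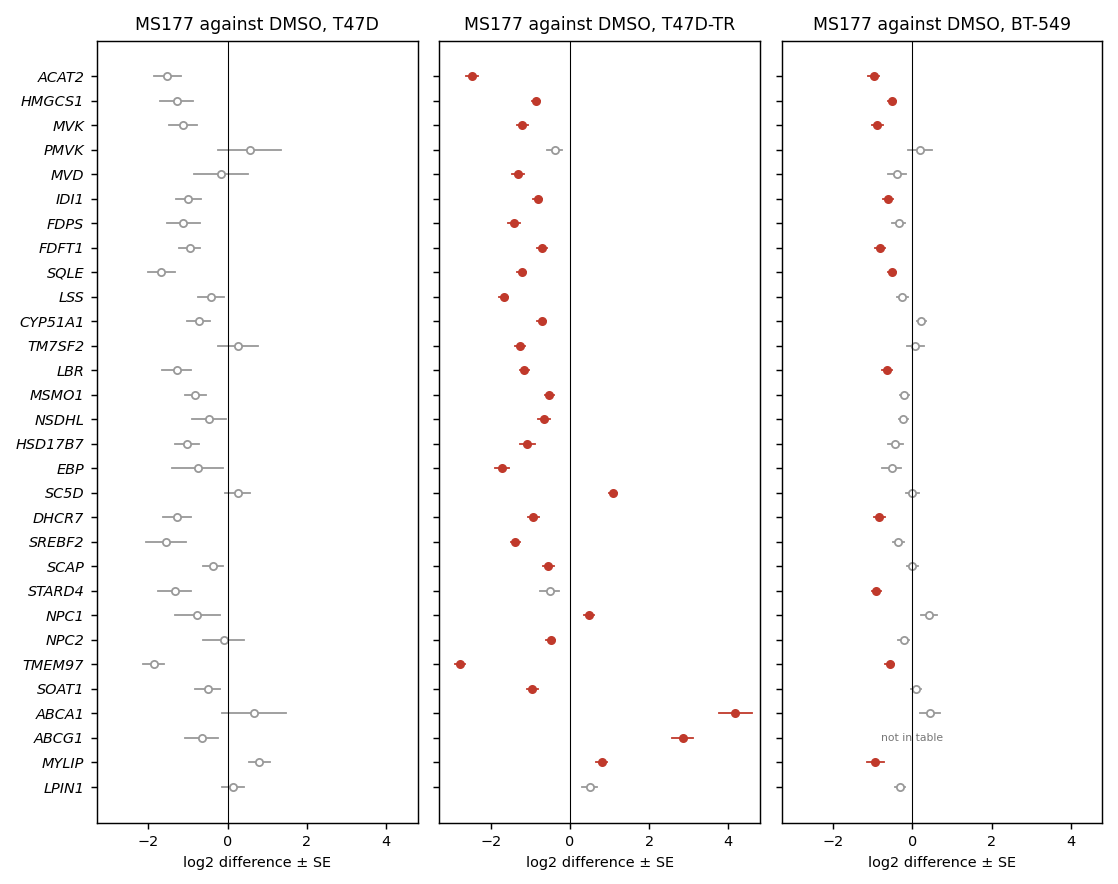
Log2 difference between MS177 and DMSO (± SE) for each cholesterol gene in T47D, T47D-TR and BT-549 at 48 h; filled points have an adjusted p under 0.05. Filled points lie mostly left of 0 in T47D-TR and BT-549, ABCA1 and ABCG1 lie far right in T47D-TR, and no point is filled in T47D, where the SE is wider.

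In T47D, 24 of 30 genes had values below 0 with MS177 and the median was -0.76 against 0.00, but 0 passed (0 of 17370 genes, and 3163 at an unadjusted p under 0.05, limma). TMEM97 had 1140.4 and 961 with MS177 and 3683 and 3940.1 in DMSO, SQLE had 1267 and 2072 with MS177 and 5112 and 5261 in DMSO, and SREBF2 had 1444 and 3463 with MS177 and 6930.4 and 6208 in DMSO. Both MS177 libraries lay below both DMSO libraries in these 3 genes. The pair disagreed elsewhere: PMVK had 8553 and 1810.3 with MS177 against 2499.9 and 2863 in DMSO, MVD had 7451 and 2095 with MS177 against 4165 and 4717 in DMSO, and TM7SF2 had 15122 and 6208 with MS177 against 7894 and 8313 in DMSO. Replicate 1 was above DMSO and replicate 2 below it in these. The mitochondrial share was 2.30 and 4.69% in the MS177 libraries against 4.98 and 5.07% in DMSO. With 1 MS177 library left out, the other is assumed to vary like DMSO. The count then rose, but without a share over all genes it is not read as a result about these genes. Against DMSO, 0 of 30 genes passed in T47D with MS177-N1 (0.0651% of all genes), MS177-N2 (0%) or C24 (0.574%). Of all genes, 506, 951 and 2124 were at an unadjusted p under 0.05 (limma). The count for C24 rose above 0 without DMSO replicate 1. Against C24, MS177 was lower in 12 and higher in 1, MYLIP (11% and 8.29% of all genes), in a fit that shares the spread of all T47D libraries. This count fell when 1 C24 library was left out and rose when 1 MS177 library was left out. MS177 was lower than MS177-N1 in 5 genes and higher in 0 (5% and 3.56% of all genes), and lower than MS177-N2 in 13 and higher in 1 (9.09% and 7.6%). Both counts rose when 1 MS177 library was left out. The count against MS177-N2 fell when 1 MS177-N2 library was left out. In fits of the compared libraries alone, 0 genes passed for MS177 against MS177-N1, MS177-N2 or C24.

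With MS8815 at 30 h in T47D-TR, 5 of 29 tested genes passed against DMSO: ABCG1 was higher (3.01% of all genes) and MVK, TM7SF2, DHCR7 and TMEM97 were lower (2.18%). ABCG1 had 127 and 266 with MS8815 and 28.3 and 25.9 in DMSO, and TM7SF2 had 1062 and 763 with MS8815 and 3770.1 and 3469 in DMSO. MVK had 282 and 307 with MS8815 and 849 and 815 in DMSO. In these 3 genes the groups did not overlap (adjusted p = 0.0471, 0.0351 and 0.0376, limma). The count of 5 was 0 in the fit over all libraries of that time. It fell when 1 DMSO library was left out and rose when 1 MS8815 library was left out, in fits given without a share over all genes. MS8815-N and EPZ-6438 had 0 genes of the set past the threshold against DMSO (0 of 11534 and 0 of 13548 genes, 289 and 184 at an unadjusted p under 0.05, limma). Without MS8815-N replicate 1 or 2 the count for MS8815-N was 18 or 15, and without EPZ-6438 replicate 1 the count for EPZ-6438 was 14. MS8815 had 0 of 29 past the threshold against MS8815-N (8 or 0.0574% of 13934 genes, 1862 at an unadjusted p under 0.05) and 0 of 29 against EPZ-6438 (15 or 0.108%, 1156 at an unadjusted p under 0.05, limma). Against MS8815-N the count rose above 0 when 1 MS8815-N library was left out. The median of all genes itself lay at 0.52 for MS8815 against MS8815-N and -0.24 for MS8815-N against DMSO. MS8815-N replicate 2 had 0 counts of HSD17B7, STARD4, ABCG1, MYLIP and LPIN1, against 143 HSD17B7 counts in replicate 1. MS177 and MS8815 were given for different times and were not compared.

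**Figure D4:**
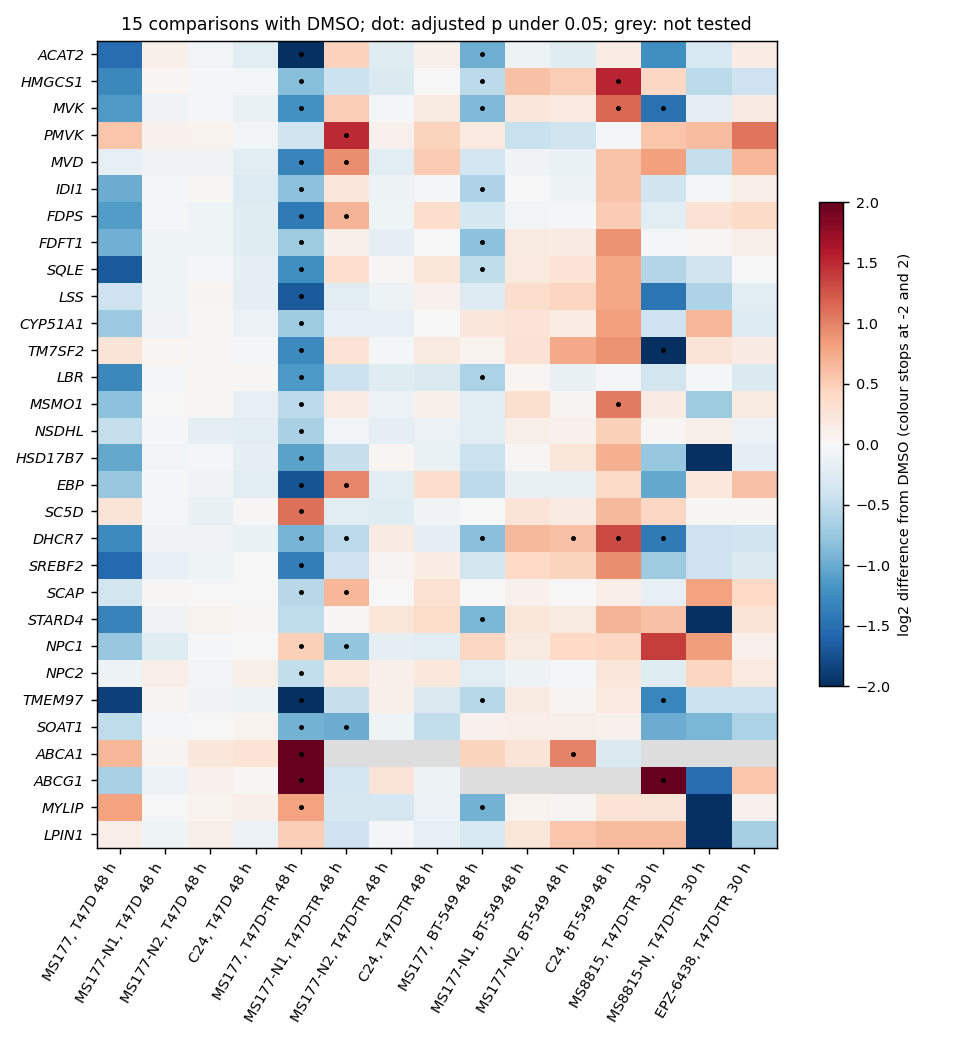
Log2 difference from DMSO of each cholesterol gene in the 15 comparisons, from blue (lower) through white to red (higher), with colour stopping at -2 and 2; dots mark an adjusted p under 0.05 and grey marks genes not tested. Most dots are in the MS177 columns of T47D-TR (27) and BT-549 (11), and the C24 column of BT-549 is the one that is red nearly throughout.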

How the data were processed

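Polyadenylated RNA of 38 samples in 19 groups was listed in 15 tables, each of 1 compound beside its DMSO libraries. Per the labels' protocols, RNA was extracted with the RNeasy kit and libraries were made with NEBNext Ultra II. Per the submitters' processing notes, RSEM and DESeq were used, with hg38 as the build; versions and strandedness are not given in the sources used here. The deposited values are on a log2 scale with a floor per table and were taken as variance-stabilized, normalized counts. The transform was undone from each table's lowest value. In T47D and BT-549, 100% of values up to 1000 reads, the range tested, then were whole reads within 0.05, giving 32.1 to 49.9 M reads per library; in T47D-TR depth is unknown. Tables of a line and time were joined through their shared DMSO libraries, with 1 factor per table, or per gene in T47D-TR. In T47D-TR these log2 factors varied between genes, with an SD of 0.094 to 0.21 per table. limma 3.58.1 (R 4.3.3; trend and robust variance) was fitted to log2(normalized count + 1) for genes with at least 10 counts in at least 2 libraries. Comparisons with DMSO used the 4 libraries of 1 table (3 for MS177-N1 in T47D, whose other column repeats an MS177-N2 library), and comparisons between compounds used all libraries of the line and time. The fit was tested on simulated data. Alternatives were another pseudocount (8), no filter, quantile normalization, the deposited log2 values, voom on recovered reads, other sets of libraries, leaving out each library, and blocks of replicate numbers. With 2 pairs per comparison the numbers could not be shown to pair the libraries. All listed genes are named, and the other pathway genes are counted with 2 given as examples after their values were seen. The genes and lists were chosen with earlier results of these data known.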

Additional observations from a re-analysis of the deposited data

Results flagged for a closer look

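The log2 response to MS177 against DMSO differed between T47D-TR and BT-549 in 16 genes, by an interaction test across all genes (limma, adjusted p under 0.05). Given as the response in T47D-TR minus that in BT-549, the values were -2.21 for TMEM97, -1.50 for ACAT2, -1.42 for LSS, -1.35 for TM7SF2, -1.20 for EBP, -1.07 for FDPS, -1.04 for SOAT1, -1.02 for SREBF2, -0.94 for CYP51A1, -0.93 for MVD, -0.72 for SQLE and -0.52 for LBR. They were 0.82 for LPIN1, 1.10 for SC5D, 1.74 for MYLIP and 3.74 for ABCA1. Depth could not be recovered in T47D-TR. MYLIP was the one gene of the 16 called in opposite directions in the 2 lines.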

How the results depend on the processing

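No called difference of a named gene changed sign under any alternative: of 2464 such values, 2171 stayed past the threshold and 293 did not, 194 of them on leaving out a library. Apart from leaving out a library, the counts of genes past the threshold moved by over 1.5 times in the cases given here, whose cause was not tested. The ranges on leaving out a library, listed last, include some that moved less. Fitting all libraries of the line gave 15 for MS177 against DMSO in T47D (0 in the report), 0 for MS177-N1 in T47D-TR (8), 0 for MS177-N2 in BT-549 (2) and 0 for MS8815 (5). Fitting only the compared libraries gave 0 for MS177 in T47D against MS177-N1 (5), MS177-N2 (14) and C24 (13). The deposited log2 values gave 14 for MS177-N1 against DMSO in T47D-TR and 4 for MS177-N2 in BT-549. Quantile normalization gave 1 for MS177-N2 in BT-549, 8 for MS177 against MS177-N1 in T47D, and 1 each for MS8815 against MS8815-N and EPZ-6438 (0). Voom gave 1 for MS177-N2 in BT-549, no filter gave 2 for MS8815, and a pseudocount of 8 gave 1 for MS8815 against MS8815-N. With the replicate number as a block, in samples that share only a number (correlation of deviations -0.76 to 0.76), counts became 1 for MS177 against DMSO in T47D, 6 for MS177 (11), 13 for MS177-N1 (0), 1 for MS177-N2 and 10 for C24 (4) in BT-549, 8 and 5 for MS177 against MS177-N2 and C24 in T47D, and 10 for the difference between lines (16). Crossed pairs, chosen after seeing the data, gave 5 for MS177 in T47D, 14 for MS177-N1 in T47D-TR, and 24, 11 and 20 for MS177, MS177-N2 and C24 in BT-549. Leaving out 1 library in turn gave, against DMSO, 0 to 25 for MS177 and 0 to 8 for C24 in T47D, 23 to 29 for MS177, 0 to 8 for MS177-N1, 0 to 19 for MS8815, 0 to 18 for MS8815-N and 0 to 14 for EPZ-6438 in T47D-TR, and 6 to 13 for MS177, 0 to 1 for MS177-N1, 1 to 3 for MS177-N2 and 9 to 13 for C24 in BT-549. It gave 25 to 26, 0 to 26 and 0 to 27 in T47D for MS177 against MS177-N1, MS177-N2 and C24, 20 to 22 against C24 in BT-549, 0 to 12 for MS8815 against MS8815-N and 12 to 16 for the difference between lines. With 1 library left in a group, it is assumed to vary like the others. The share of all genes passing in these reduced fits is not given, so their counts describe the fit and not the listed genes. With 2 libraries per group, small differences were not detectable, and unknown depth in T47D-TR leaves the precision of low counts there unstated.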
